A study of Drosophila melanogaster with 30 samples.

Results

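The experiment described here set OSCs that received the *ovo-FLAG* plasmid against OSCs that received the empty vector, and measured poly(A) RNA 48 h after nucleofection. Its members are all genes whose normalized counts averaged at least 2 across the 6 libraries. This held for 9025 of the 17807 genes in the table. OSCs are a female cell line of *Drosophila melanogaster* ovarian somatic cells that keeps the character of follicle cells, and the line used was wild type, with no mutation named. In the group with *ovo-FLAG*, 3 samples carried a plasmid that expresses the B isoform of Ovo with a FLAG tag from the *act5C* promoter, which is active in most cells. In the group with the empty vector, 3 samples carried the same kind of plasmid without *ovo*. The series holds 30 libraries in all, among them OSCs that lack *l(3)mbt* (Δ*l(3)mbt* OSCs) after the same nucleofection, and ovarian cells sorted by *vas*-GFP into germ cells and somatic cells.

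Ovo is a zinc finger transcription factor. The *ovo* locus serves germline and soma in flies: its germline isoforms are needed for the survival of female germ cells and for oogenesis, and its somatic isoform, known as Shavenbaby, directs the formation of trichomes and cuticle in the epidermis. OSCs hold a short form of the piRNA pathway centred on Piwi and the Yb body, and lack the germ granule called nuage, in which Aubergine and Argonaute-3 amplify piRNAs in germ cells. The question of the experiment was which genes change when Ovo is placed in a somatic cell that does not make it.

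The libraries with *ovo-FLAG* were shallower, with 2.27 to 5.20 M counted reads, than those with the empty vector, with 7.64 to 12.6 M. No library stood apart in the share of its reads taken by its 20 most abundant genes, which was 8.23 to 8.54% with *ovo-FLAG* and 8.14 to 8.35% with the empty vector. *ovo* itself had 699, 612 and 636 normalized counts in the libraries with *ovo-FLAG*, against 10.2, 7.12 and 11.2 with the empty vector (log2 FC 5.97 ± 0.17, adjusted p = 1.2e-14). Here and throughout, log2 FC is the log2 fold change of *ovo-FLAG* over the empty vector, with its standard error (SE) after ± and the adjusted p of limma. The *ovo* level thus fitted the label of every library. These *ovo* counts include reads from the plasmid, so they give no level of the endogenous gene. The OSC label fitted the level of *tj*, a transcription factor of ovarian somatic cells, which had 5191, 5012 and 4869 normalized counts with *ovo-FLAG* and 6082, 5522 and 5593 with the empty vector. *piwi* had 11444, 11616 and 12056 with *ovo-FLAG*, against 11008, 11753 and 11438. It does not tell somatic cells from germ cells: in the sorted ovary its log2 fold change of germ cells over somatic cells was 0.62. The libraries are bulk RNA, so the share of cells that took up the plasmid is not known, and more RNA per cell and more cells with that RNA cannot be told apart. Whether the 3 samples of a group came from separate cultures is given only as distinct samples, so p-values measure the spread between these samples.

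Genes rose more often than they fell. A call needed a change of more than 0.6 in the log2 of the normalized count plus 1. It also needed a Benjamini-Hochberg adjusted p below 0.1 from limma. By this rule 792 genes rose, 8.78% of those tested, and 106 fell, 1.17%. Thus 88.2% of the calls were rises. A gene under 2 counts with the empty vector entered the test only where its mean with *ovo-FLAG* was higher, so it leaned toward a rise. The size of its log2 fold change depends on the 1 added before the log2. The rises counted here and below include such genes. Among the 8605 genes that averaged at least 2 with the empty vector, 616 rose (7.16%) and 106 fell (1.23%). The counts of the gene lists below are to be read against the shares of all genes, 8.78% and 1.17%. Under quantile normalization the calls were 551 rises and 385 falls, and 58.9% were rises. The sizes differed as well: the rises had a median log2 fold change of 1.53 and reached 7.64, with 250 of them above 2. The falls had a median of -0.88 and 1 was below -2. At any fold change 15.8% of genes were higher and 13.8% were lower at an adjusted p under 0.1, so the excess of rises lay in large changes. Of all genes tested 37.4% had groups of libraries without overlap, as had 773 of the 792 rises and 94 of the 106 falls.

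**Figure D1:**
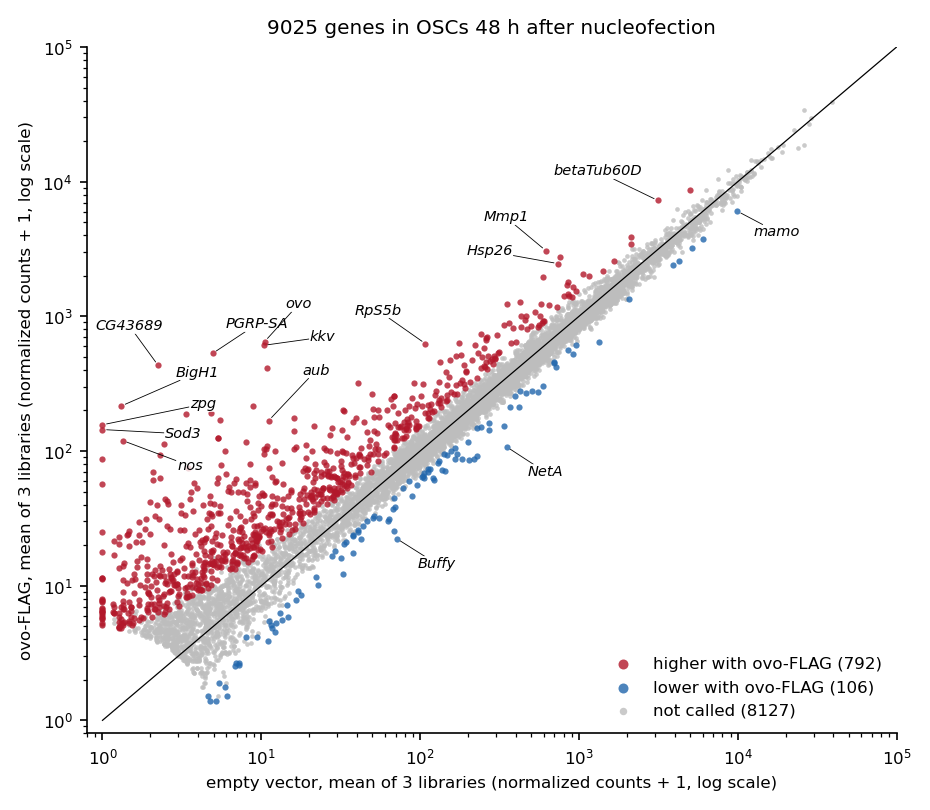
Mean normalized counts plus 1 of each of the 9025 genes tested, for *ovo-FLAG* on the vertical and the empty vector on the horizontal axis, both on log scales, over 3 libraries each; red points rose, blue points fell, grey points were not called, and the line marks equal levels. The rises spread far above the line at the left, where the empty-vector level was low, and the falls lie close under it.

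Rises and falls were compared by the level of a gene with the empty vector. Among genes with 4 to 20 normalized counts with the empty vector, 231 of 1079 rose (21.4%), and the share dropped to 8.41% of 2629 genes at 20 to 200 counts, 1.74% of 3741 genes at 200 to 2000 counts and 0.629% of 636 genes above 2000 counts. Falls were 2.13%, 1.94%, 0.642% and 0.943% of the same sets. Genes under 4 counts, with 2 of the 106 falls and the rises outside these sets, are left out of this comparison. The reason is that a gene under 2 counts passed the filter on low values only where its mean with *ovo-FLAG* was higher. The same empty-vector libraries set these levels and enter the fold changes. A gene low there by chance leans toward a rise, so the shares lean toward rises at low levels also above 4 counts. At the low end, 46 genes had no read in any of the 3 empty-vector libraries, which together hold 31.1 M counted reads, and at least 1 read in each library with *ovo-FLAG*, and 9 of them averaged at least 10 normalized counts with *ovo-FLAG*. The reverse, reads in all 3 empty-vector libraries and none in the shallower libraries with *ovo-FLAG*, held for 91 genes. Rises came from every large chromosome arm in like shares, from 8.19% of the 1502 tested genes of the X chromosome to 9.63% of the 1723 on 2R, and were 4 of 79 genes on chromosome 4.

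The sorted ovarian cells give a readout that the call did not use. There 7.04% of genes were germline-enriched and 7.99% soma-enriched, with thresholds of 1 for the log2 difference and 0.01 for the adjusted p. The larger the rise in OSCs, the larger the germline share: 19.8% of 172 genes with a rise of 0.6 to 1 were germline-enriched, 19.9% of 322 with a rise of 1 to 2, 28.1% of 128 with a rise of 2 to 3, 42.6% of 47 with a rise of 3 to 4, and 60.6% of 33 with a larger one. Soma-enriched genes made up 13.4% of the smallest rises and none of the 33 largest. Read the other way, 26.8% of 650 germline-enriched genes rose in OSCs, 12.8% of 686 soma-enriched genes and 6.16% of 7141 genes that were neither. Genes under 2 counts with the empty vector entered all these sets only where their mean with *ovo-FLAG* was higher. The shares by size of rise were not repeated without them. At 4 counts or more with the empty vector, 20.3% of 556 germline-enriched, 11.5% of 636 soma-enriched and 4.58% of 6617 other genes rose. Where OSCs already made the RNA at 100 normalized counts or more with the empty vector, the same shares were 6.10% of 344, 4.28% of 491 and 1.45% of 4761 genes. These shares are descriptions, and their differences were not tested.

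Genes of germ cell development that were called all rose, and some of them had next to no reads in OSCs with the empty vector. Of 39 listed genes 35 were tested, 14 rose and none fell. Of these, 8 of the 35 passed the filter on low values through the libraries with *ovo-FLAG*, and among the other 27 there were 6 rises and a median log2 fold change of -0.03, against -0.01 over all genes. A further 6 of the 35 were lower at an adjusted p under 0.1 without reaching the fold threshold, among them *bru1*, a translational repressor of *osk*, with 781, 622 and 713 normalized counts with *ovo-FLAG* against 963, 871 and 839 with the empty vector (log2 FC -0.34 ± 0.08, adjusted p = 0.0044). *zpg* encodes an innexin that couples germ cells to somatic cells and is needed for their early differentiation. It lies at chromosome 3L, 6604366 to 6606032, minus strand (BDGP6), and had 159.7, 137 and 169.6 normalized counts in the 3 libraries with *ovo-FLAG* and no read in any with the empty vector. Every library with *ovo-FLAG* was thus far above a group without a single read, and with 302 reads, and 3 reads over the empty-vector group as the limit that a count of 0 allows, the gene was at least 280-fold higher. *nos*, a translational repressor that maintains germline stem cells, had 131, 111 and 112 normalized counts with *ovo-FLAG* against 0, 0.475 and 0.559 with the empty vector. Its 224 reads against 2 make a ratio of 311 per counted read (95% exact counting interval 85.1 to 2584).

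Determinants of the oocyte and its poles were in the same set. *osk*, which organizes the germ plasm, lies at chromosome 3R, 8935126 to 8938395, plus strand, and had 26.9, 51.9 and 40.1 normalized counts with *ovo-FLAG*, against 3.14, 0.475 and 1.12 with the empty vector (log2 FC 4.07 ± 0.44, adjusted p = 1.4e-06). *orb*, a regulator of localized translation in the oocyte, had 61.7, 51.9 and 50.4 against 6.27, 10.4 and 7.82 (log2 FC 2.62 ± 0.27, adjusted p = 7.7e-07). *swa*, needed to localize *bicoid* mRNA, had 14.2, 20.7 and 25.2 against 0.784, 0.950 and 0.559 (log2 FC 3.55 ± 0.47, adjusted p = 1.6e-05). None of these groups overlapped, and the levels reached stayed low, the highest being that of *orb* in the library of replicate 1. *osk* and *swa* passed the filter through the libraries with *ovo-FLAG*. Genes that OSCs already transcribed rose less: *fs(1)N*, a gene of the vitelline membrane and of egg patterning, had 240.4, 254 and 229 against 54.9, 67.9 and 70.4 (log2 FC 1.90 ± 0.13, adjusted p = 2.3e-09). *gcl*, which guides germ cell formation, had a log2 fold change of 1.04 (SE 0.13). *grk*, the ligand of Egfr made by the oocyte, had 0.96 (SE 0.22).

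Other regulators of germ cells were not called. *bam*, the switch for the differentiation of germline stem cell daughters, had 31.6, 44.1 and 32.1 normalized counts with *ovo-FLAG* and 32.1, 57.5 and 45.3 with the empty vector and the ranges overlap (log2 fold change -0.29, adjusted p = 0.41). Its partner *bgcn* had a log2 fold change of 0.54 (SE 0.19, adjusted p = 0.051), below the fold threshold. None of the 12 tested genes of sex determination and the *ovo* network was called, and *Sxl*, the master switch of female identity, had 2213, 1901 and 2236 against 2414, 2058 and 2049 (log2 fold change -0.04). *otu*, a female germline gene that Ovo activates in ovaries, was under the filter on low values in these cells and has no test.

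Genes of meiosis rose in 7 of 27 tested cases of 31 listed, with no fall, and in 6 of the 26 that passed on the empty-vector libraries alone, where 7.16% of all such genes rose and 1.23% fell. *mtrm*, a meiotic inhibitor of Polo kinase, lies at chromosome 3L, 8413012 to 8414103, plus strand, and had 139, 109 and 123 normalized counts with *ovo-FLAG*, against 0, 8.07 and 5.03 with the empty vector (log2 FC 5.03 ± 0.55, adjusted p = 2.9e-06). Components of the synaptonemal complex, the protein zipper between paired chromosomes, rose from different starting levels. *c(2)M*, part of its lateral element, had 28.5, 28.5 and 39.0 against 0.784, 0.950 and 1.68 (log2 FC 3.96 ± 0.41, adjusted p = 7.9e-07). *c(3)G*, its transverse filament, had 191, 210.0 and 239 against 80.7, 75.5 and 96.1 (log2 FC 1.34 ± 0.13, adjusted p = 3.5e-07). For both genes the lowest library with *ovo-FLAG* lay well above the highest with the empty vector. *c(2)M* passed the filter through the libraries with *ovo-FLAG*. *hdm*, a crossover protein, had a log2 fold change of 3.66 (SE 0.44).

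Among genes of the egg and early embryo, 6 of 15 tested rose, and 2 of the 11 that passed on the empty vector alone. *BigH1*, the linker histone of germ cells and early embryos, lies at chromosome 3R, 14663450 to 14664822, plus strand, and had 180.3, 239 and 227 normalized counts with *ovo-FLAG* against 0, 0.950 and 0 with the empty vector (log2 FC 7.43 ± 0.33, adjusted p = 7.4e-12). Its 404 reads against 2 make a ratio of 561 per counted read (95% exact counting interval 154 to 4648). The 1 added before the log2 makes its log2 fold change smaller than this ratio. *BigH1* passed the filter through the libraries with *ovo-FLAG*, as did *Mos*, given below. *alphaTub67C*, the maternal alpha-tubulin, had 236, 199.7 and 209 against 7.84, 8.07 and 7.82 (log2 FC 4.59 ± 0.19, adjusted p = 2.4e-12). In both cases the 3 libraries of a group were close to each other and the groups were far apart. *Mos*, a kinase of oocyte meiosis, had 31.6, 54.5 and 42.4 against 0, 3.32 and 1.12 (log2 FC 4.36 ± 0.48, adjusted p = 1.7e-06). *wisp*, the poly(A) polymerase of egg activation, had 64.8, 88.2 and 83.6 against 6.27, 11.9 and 4.47 (log2 FC 3.31 ± 0.30, adjusted p = 1.3e-07). *plu*, a regulator of the PAN GU kinase, had 38 reads against 1 over the groups, a ratio of 106 (95% exact counting interval 17.8 to 4276). Of the fusome and ring canal genes, which shape the cytoskeleton shared by germline cysts, 1 of 12 rose, near the share of all genes, and none of the 11 that passed on the empty vector alone. It was the ring canal gene *qua* (log2 fold change 3.75, SE 0.55), and 8 others were lower at an adjusted p under 0.1 with a log2 fold change above -0.6.

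The germline part of the piRNA pathway rose in 8 of 13 genes, 6 of them among the 11 that passed on the empty vector alone, and none fell. The PIWI proteins of the ping-pong cycle were measured well above the counting limit. *aub* had 193, 132 and 176 normalized counts with *ovo-FLAG* against 8.62, 12.8 and 8.94 with the empty vector (log2 FC 3.92 ± 0.22, adjusted p = 1.4e-10). *AGO3* had 179, 236 and 190.2 against 39.2, 26.1 and 29.1 (log2 FC 2.65 ± 0.17, adjusted p = 1.2e-09). *vas*, the RNA helicase of nuage, had 66.4, 38.9 and 47.0 against 14.9, 17.6 and 10.6 (log2 FC 1.74 ± 0.27, adjusted p = 8.5e-05), and its groups did not overlap. The genes of transcription and export from dual-strand clusters were called in part. *moon*, which starts transcription there, had 9.49, 7.78 and 5.73 against 0.784, 0.950 and 1.12 (log2 FC 2.13 ± 0.56, adjusted p = 0.0089), and passed the filter through the libraries with *ovo-FLAG*. *Nxf3*, the export factor of cluster transcripts, had a log2 fold change of 0.65 (SE 0.11), which lost its call without empty vector replicate 2 (0.58) or *ovo-FLAG* replicate 1 (0.59). *CG13741*, whose protein Bootlegger acts with it, had 2.78 (SE 0.32). *rhi*, the HP1 protein of these clusters, had 17.4, 18.2 and 18.3 against 16.5, 12.8 and 20.1 (log2 fold change 0.14, adjusted p = 0.79). *cuff*, a partner of Rhino, had a log2 FC of 0.34 (adjusted p = 0.26). *krimp*, a nuage scaffold that OSCs already express, had 1276, 1462 and 1456 against 1383, 1565 and 1618 (log2 fold change -0.12, adjusted p = 0.24). Of 32 genes shared with or specific to the somatic pathway none was called. The largest change among them toward lower values was that of *fs(1)Yb*, the scaffold of Yb bodies, with 998, 949 and 965 against 1327, 1262 and 1228 (log2 FC -0.39 ± 0.06, adjusted p = 7.7e-05), which is inside the fold threshold although the groups did not overlap.

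**Figure D2:**
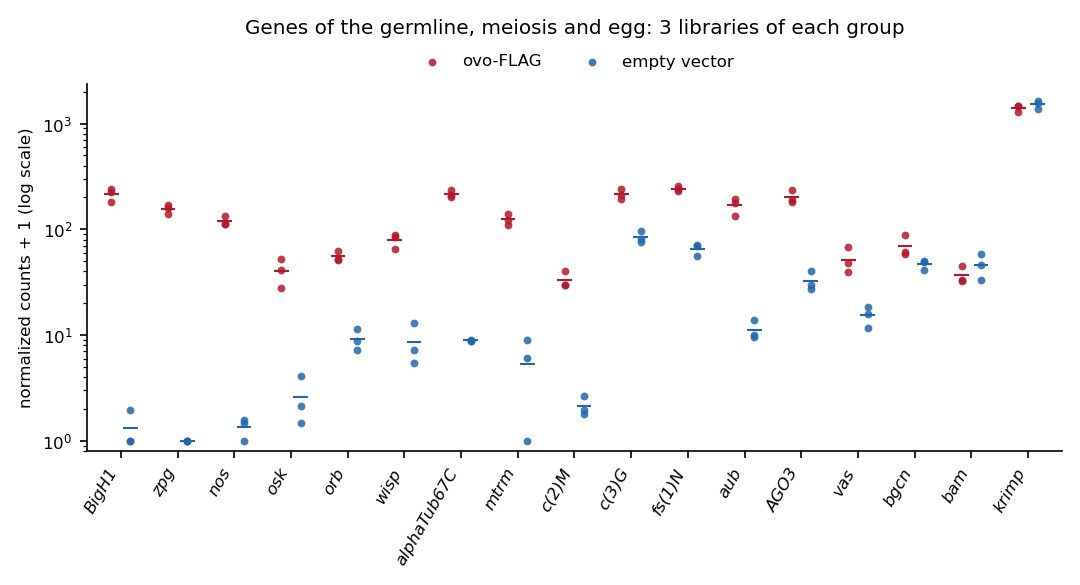
Normalized counts plus 1 on a log scale for genes of the germline, meiosis and egg, with each of the 3 *ovo-FLAG* libraries in red at the left and each of the 3 empty-vector libraries in blue at the right of a gene's position, and bars at the group means. *BigH1*, *zpg* and *nos* lie above 100 with *ovo-FLAG* and near 1, where a gene without counts is drawn, with the empty vector, while *bam* and *krimp* overlap or nearly overlap between the groups.

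Chitin and cuticle genes were a group of rises outside the germline. Of 20 tested genes 7 rose and 1 fell, and the same 7 and 1 were among the 19 that passed on the empty vector alone, with a median log2 fold change of 0.40. *kkv*, the chitin synthase of the epidermis and trachea, lies at chromosome 3R, 5378093 to 5392866, minus strand, and had 636, 570.4 and 619 normalized counts with *ovo-FLAG*, against 7.05, 10.4 and 10.6 with the empty vector (log2 FC 5.89 ± 0.17, adjusted p = 1.2e-14). *Cht7*, a chitinase, had 49.0, 67.4 and 53.8 against 2.35, 4.27 and 6.15 (log2 FC 3.51 ± 0.33, adjusted p = 2.0e-07). *obst-B*, a chitin-binding protein, had 28.5, 36.3 and 26.4 against 2.35, 3.80 and 4.47 (log2 FC 2.81 ± 0.36, adjusted p = 9.5e-06). All 3 were low with the empty vector, and their groups did not overlap. Among the chitinase-like growth factors, *Idgf3* rose to 518 ± 19.8 with *ovo-FLAG*, against 179.9 ± 7.06 with the empty vector (SD, n = 3 each), and *Idgf6* fell to 417 ± 27.8, against 714 ± 35.0. Trichome effector genes, which the somatic isoform of Ovo controls in the epidermis, rose in 3 of 10 tested cases: *m*, a zona pellucida protein of the apical matrix, had a log2 fold change of 1.73 (SE 0.38). *zye*, of the same protein family, had 1.10 (SE 0.29). *sn*, which encodes the actin bundler fascin, had 0.88 (SE 0.11). The rise of *zye* was lost under quantile normalization.

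Receptors and regulators of the Toll and IMD immune pathways rose in 10 of 33 tested genes, with no fall, and in 6 of the 29 that passed on the empty vector alone. *PGRP-SA*, the receptor that senses Gram-positive bacteria upstream of Toll, lies at chromosome X, 11561643 to 11562779, plus strand, and had 527, 552 and 513 normalized counts with *ovo-FLAG*, against 0.784, 3.80 and 7.26 with the empty vector (log2 FC 7.01 ± 0.36, adjusted p = 1.2e-10). *PGRP-LC*, the receptor of the IMD pathway, had 28.5, 23.3 and 17.2 against 0.784, 0.475 and 1.68 (log2 FC 3.62 ± 0.46, adjusted p = 9.5e-06). Further down the pathways, *spz*, the ligand of Toll, had 221, 210.0 and 215 against 58.0, 68.4 and 74.3 (log2 FC 1.68 ± 0.13, adjusted p = 1.2e-08). *Dif*, an NF-kB factor of the Toll pathway, had 164, 199.7 and 173 against 66.6, 48.4 and 46.9 (log2 FC 1.72 ± 0.15, adjusted p = 1.1e-07). The 3 libraries of each group stayed apart for all 4 genes. *PGRP-LC* passed the filter through the libraries with *ovo-FLAG*. *pirk*, an inhibitor of the IMD pathway, had 277, 309 and 367 against 94.1, 87.8 and 88.3 (log2 FC 1.80 ± 0.12, adjusted p = 1.2e-09). *Rel*, the NF-kB factor of the IMD pathway, had a log2 fold change of 0.39 (SE 0.06), below the fold threshold. Of 18 antimicrobial peptide genes found 5 passed the filter and 3 were called, none of which passed on the empty vector alone. Their levels were low: the summed level of the list was 29.8 to 34.8 normalized counts with *ovo-FLAG* and 5.49 to 6.17 with the empty vector, and *Drs*, an antifungal peptide, had 15 reads over the 3 libraries with *ovo-FLAG* and none with the empty vector, at least 13.9-fold more.

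Heat shock genes rose in 10 of 21 tested genes and none fell, and 8 rose among the 19 that passed on the empty vector alone, where 7.16% of all such genes rose. Those of small heat shock proteins had like fold changes. *Hsp26* had 2491, 2427 and 2468 normalized counts with *ovo-FLAG* against 742, 750.2 and 721 with the empty vector (log2 FC 1.74 ± 0.06, adjusted p = 6.9e-14). *Hsp23* had 1933, 2012 and 1946 against 590.2, 614 and 563 (log2 FC 1.74 ± 0.06, adjusted p = 1.8e-13). *Hsp68*, an inducible Hsp70 family member, had 1321, 1213 and 1306 against 447, 408 and 417 (log2 FC 1.59 ± 0.07, adjusted p = 2.9e-12). For these 3 genes the libraries of a group lay close together and the groups far apart. *Hsp70Ab* stands for the Hsp70 copies, which are nearly identical in sequence and whose reads may be split between copies. It had 88.6, 88.2 and 121 against 13.3, 10.9 and 9.50 (log2 FC 3.03 ± 0.23, adjusted p = 9.5e-09). The constitutive *Hsp83*, the gene of Hsp90, had a log2 fold change of 0.39 (SE 0.04), below the fold threshold. *stv*, a co-chaperone of the BAG family, rose to 3864 ± 144 with *ovo-FLAG*, against 2133 ± 76.3 with the empty vector (SD, n = 3 each).

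Genes of cell death and of JNK signalling, which share targets in stressed and wounded epithelia, rose in 7 of 22 tested genes and fell in 1. *rpr*, an activator of caspases, lies at chromosome 3L, 18397535 to 18398435, minus strand, and had 41.1, 36.3 and 42.4 normalized counts with *ovo-FLAG*, against 3.92, 5.70 and 1.68 with the empty vector (log2 FC 3.20 ± 0.37, adjusted p = 2.7e-06). *Mmp1*, a matrix metalloproteinase and JNK target, had 3009.7, 3039 and 3178 against 559.6, 617 and 676 (log2 FC 2.32 ± 0.07, adjusted p = 1.3e-14). *puc*, the JNK phosphatase that is also its target, had 1654, 1784 and 1992 against 778, 869 and 916 (log2 FC 1.08 ± 0.07, adjusted p = 2.5e-09). *Mmp1* gained the most counts of these 3. *Ets21C*, an ETS factor of stress responses, had 645, 630.1 and 638 against 142, 199.9 and 183 (log2 FC 1.88 ± 0.10, adjusted p = 1.4e-10). *Buffy*, a Bcl-2 family member, went the other way with 23.7, 20.7 and 19.5 against 76.8, 72.6 and 61.5 (log2 FC -1.67 ± 0.20, adjusted p = 5.3e-06). The cytokines of the JAK/STAT pathway rose as well: *upd2* averaged 109 ± 7.04 with *ovo-FLAG*, against 18.0 ± 0.952 with the empty vector (SD, n = 3 each; log2 FC 2.53 ± 0.19, adjusted p = 6.7e-09). *upd3* had 136, 161 and 195 against 30.6, 42.7 and 57.5 (log2 FC 1.92 ± 0.20, adjusted p = 6.8e-07), and their feedback inhibitor *Socs36E* had a log2 fold change of 1.03 (SE 0.06), while the other 10 tested genes of that pathway were not called. Of 18 tested genes of oxidative and amino acid stress 4 rose, among them the glutathione transferase *GstE6* (log2 fold change 1.05, SE 0.12). *Sod3*, the extracellular superoxide dismutase, had 123, 163 and 143 normalized counts with *ovo-FLAG* and no read with the empty vector, at least 246-fold more.

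**Figure D3:**
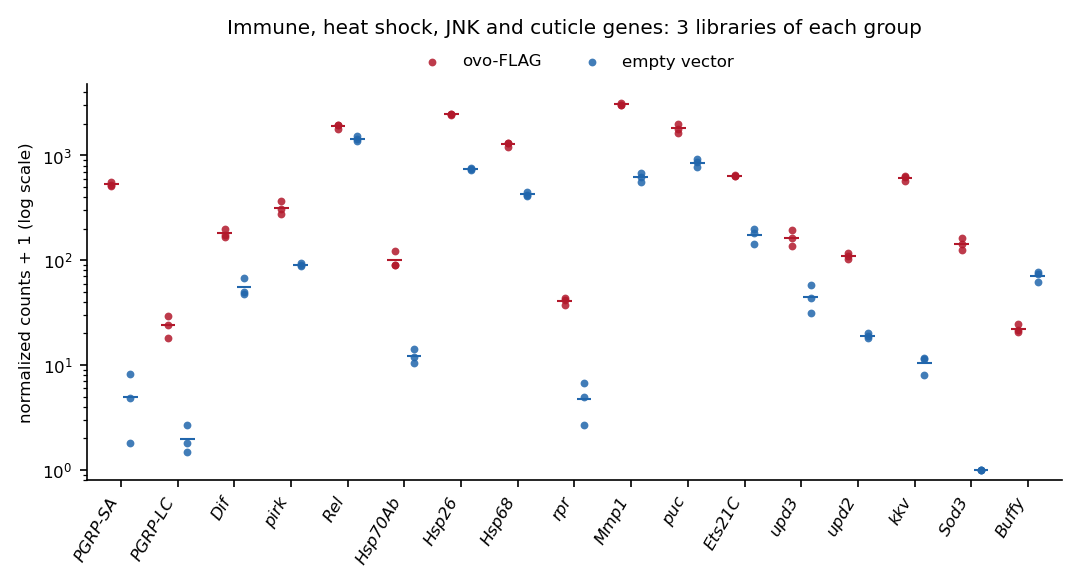
Normalized counts plus 1 on a log scale for immune, heat shock, cell death, JNK, cytokine and cuticle genes, with each of the 3 *ovo-FLAG* libraries in red at the left and each of the 3 empty-vector libraries in blue at the right of a gene's position, and bars at the group means. The red points lie above the blue ones for every gene shown except *Buffy*, where they lie below.

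Among signalling molecules, single ligands and inhibitors were called, not whole pathways. *dpp*, the BMP ligand of the anterior follicle cells, lies at chromosome 2L, 2428372 to 2459823, plus strand, and had 172, 223 and 196 normalized counts with *ovo-FLAG* against 25.1, 39.9 and 31.3 with the empty vector (log2 FC 2.60 ± 0.17, adjusted p = 1.9e-09). *sog*, a BMP antagonist, had a log2 fold change of 1.21 (SE 0.22). *brk*, the repressor that Dpp signalling turns off, fell to 70.8 ± 12.8 with *ovo-FLAG*, against 136 ± 3.34 (SD, n = 3 each), and *Notum*, an inhibitor and target of Wnt signalling, fell to 30.2 ± 8.56, against 62.6 ± 2.02. Over the Hedgehog, Wnt and BMP list 3 of 34 tested genes rose and 3 fell. Of all genes tested 8.78% rose and 1.17% fell, so the rises of this list were near the share of all genes. Of 24 tested EGFR genes 4 rose and 1 fell: the secreted inhibitor *aos* had 45.9, 31.1 and 51.6 against 14.1, 12.8 and 11.2 (log2 FC 1.65 ± 0.27, adjusted p = 1.4e-04). The ETS antagonist *edl* had a log2 fold change of 1.40 (SE 0.13). *rho*, the protease that releases the ligands, had 0.86 (SE 0.15). Of 20 tested Notch genes 4 rose, 3 of them among the 19 that passed on the empty vector alone. They include *numb*, an inhibitor of Notch (log2 fold change 1.48, SE 0.11), and the ligand gene *Dl* (1.00, SE 0.18). Ecdysone genes were called in 3 of 22 cases, all rises, 2 of them among the 21 that passed on the empty vector alone.

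Follicle cell genes that were called all rose. Of 23 tested identity genes 7 rose and none fell, and 6 rose among the 22 that passed on the empty vector alone. A further 7 were lower at an adjusted p under 0.1 within the fold threshold, such as the ligand gene *Wnt4* (log2 fold change -0.57, SE 0.11), the receptor gene *N* (-0.40, SE 0.06) and *tj* (-0.19, SE 0.05). *peb*, the zinc finger factor Hindsight that follicle cells turn on when they stop dividing, lies at chromosome X, 4617564 to 4627206, plus strand, and had 56.9, 49.3 and 42.4 normalized counts with *ovo-FLAG*, against 3.92, 7.60 and 3.91 with the empty vector (log2 FC 3.08 ± 0.32, adjusted p = 6.8e-07). *eya*, a regulator that separates follicle cell fates, had 497, 503 and 473 against 321, 293 and 272 (log2 FC 0.74 ± 0.08, adjusted p = 1.9e-06). Both are soma-enriched in the sorted ovary, with log2 fold changes of -2.56 and -4.37 of germ cells over somatic cells. Of 25 eggshell and yolk genes 11 were tested and 3 rose, 2 of them among the 9 that passed on the empty vector alone: *fs(1)M3*, a vitelline membrane gene of the germline in the sorted cells (log2 fold change there 4.78), had 57 reads against 3, a ratio of 52.8 (95% exact counting interval 17.2 to 263), and *tsl*, which patterns the ends of the egg, had 28.5, 49.3 and 43.5 against 8.62, 5.22 and 11.7 (log2 FC 2.15 ± 0.33, adjusted p = 6.8e-05). The third was the chorion gene *Cp18* (log2 fold change 1.11), a rise that was lost under quantile normalization.

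Matrix and adhesion genes moved both ways. Of 17 basement membrane genes 6 rose and none fell by the rule, and 8 others were lower at an adjusted p under 0.1 with a log2 fold change above -0.6. *Tig*, a ligand of integrins, had 327, 296 and 331 normalized counts with *ovo-FLAG* against 40.0, 41.8 and 37.4 with the empty vector (log2 FC 2.97 ± 0.13, adjusted p = 3.1e-12). *Mp*, a collagen, had 117, 129.6 and 131 against 38.4, 32.3 and 30.7 (log2 FC 1.87 ± 0.16, adjusted p = 7.2e-08). The abundant laminin gene *LanA* had 18636 ± 937 with *ovo-FLAG*, against 26154 ± 1676 with the empty vector (SD, n = 3 each). Its log2 FC of -0.49 is inside the threshold. The summed level of the list was 46179 to 50228 normalized counts with *ovo-FLAG*, below 55873 to 60539 with the empty vector, so that it was lower although its calls were rises. Of 30 adhesion and polarity genes 4 rose and 2 fell, where 8.78% of all genes tested rose and 1.17% fell. *ds*, the cadherin ligand of Fat, had 33.2, 38.9 and 28.6 against 3.14, 4.75 and 5.59 (log2 FC 2.67 ± 0.34, adjusted p = 7.7e-06). *fj*, the Golgi kinase that acts on both of them, had 108, 70.0 and 95.1 against 226, 221 and 230.2 (log2 FC -1.32 ± 0.14, adjusted p = 9.1e-07). *scb*, an integrin subunit, rose to 895 ± 44.5, against 364 ± 20.2 (SD, n = 3 each).

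Falls were fewer and smaller, and 42 of the 106 had a log2 fold change below -1. *NetA*, a secreted guidance protein, lies at chromosome X, 14604012 to 14653928, minus strand, and had 120.2, 93.3 and 105 normalized counts with *ovo-FLAG* against 357, 346 and 346 with the empty vector (log2 FC -1.72 ± 0.11, adjusted p = 8.3e-10). Its neighbour *NetB*, at chromosome X, 14686038 to 14749376, minus strand, had 147, 135 and 172 against 343, 304 and 363 (log2 FC -1.15 ± 0.11, adjusted p = 2.0e-07). The groups were far apart for both. *Saf6*, related to a subunit of transcription complexes, had 656, 656 and 612 against 1387, 1272 and 1347 (log2 FC -1.06 ± 0.06, adjusted p = 4.0e-10). Among abundant genes of the OSC, *mamo*, a zinc finger factor, had 6432, 5593 and 6098 against 11356, 8975 and 9406 (log2 FC -0.71 ± 0.07, adjusted p = 6.2e-07). *sev*, a receptor tyrosine kinase, had 2539.9, 2297 and 2355 against 4118, 3702 and 3864 (log2 FC -0.70 ± 0.06, adjusted p = 3.6e-08). By number of counts lost, *mamo* was the largest of these falls. *CG9747* (88.6, 93.3 and 77.9 against 242, 183 and 223), *nAChRalpha1*, an acetylcholine receptor subunit (305, 311 and 285 against 637, 567 and 572), and *Pkc53E*, a protein kinase C (103, 57.0 and 93.9 against 198, 204 and 204), fell by 1.31, 0.98 and 1.29 on the log2 scale. Among 86 genes that fell and were tested in the sorted cells, 24.4% were soma-enriched and 8.14% germline-enriched, against 8.09% and 7.67% of the 8477 genes tested in both.

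Some of the largest rises belong to none of the 36 lists. *CG43689*, which the study counts among DNA-binding proteins, lies at chromosome X, 4075743 to 4092237, plus strand, and had 444, 462 and 388 normalized counts with *ovo-FLAG*, against 1.57, 0.475 and 1.68 with the empty vector (log2 FC 7.64 ± 0.26, adjusted p = 1.3e-13). *Gs1*, a glutamine synthetase, had 189.8, 166 and 214 against 2.35, 5.22 and 3.91 (log2 FC 5.34 ± 0.26, adjusted p = 2.1e-11). *CG14516* had 183, 194 and 182 against 3.92, 1.42 and 1.68 (log2 FC 5.89 ± 0.29, adjusted p = 2.2e-11). *CG6357* had 416, 366 and 461 against 7.05, 14.2 and 8.38 (log2 FC 5.30 ± 0.21, adjusted p = 9.9e-13). All of these were low in every library with the empty vector, and *CG43689* passed the filter through the libraries with *ovo-FLAG*. The first 3 were germline-enriched in the sorted ovary, with log2 fold changes of 6.49, 3.74 and 5.42, and *CG6357* was not (-0.98). *asRNA:CR45481*, an antisense RNA gene at chromosome X, 3968933 to 3972054, plus strand, had 117, 46.7 and 96.2 normalized counts with *ovo-FLAG* and no read with the empty vector, at least 163-fold more, and had a log2 fold change of 8.52 in the sorted germ cells. Antisense RNA genes rose in 8.38% of 191 cases and long noncoding RNA genes in 10.2% of 254, close to the 8.74% of the remaining 8580 genes. Among genes that OSCs express strongly, *betaTub60D*, a tubulin, rose to 7248 ± 256 with *ovo-FLAG*, against 3138 ± 99.6 with the empty vector, and *Arc1*, which forms RNA-carrying capsids, rose to 8696 ± 304, against 5020.1 ± 199 (SD, n = 3 each).

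Of 602 tested transcription factors and chromatin proteins of the study's list 37 rose and 5 fell, 30 and 5 among the 585 that passed on the empty vector alone, so their share of rises was near or below that of all genes. Besides *ovo*, *CG43689* and *BigH1*, those with the smallest p were *Ets21C*, *Dif* and *edl*, given above, and *rgr*, which had 647, 640.4 and 630.1 normalized counts with *ovo-FLAG* and 408, 383 and 404 with the empty vector (log2 FC 0.68 ± 0.07, adjusted p = 6.4e-07). On the other side *Sox102F*, a Sox factor, fell to 269 ± 30.6 with *ovo-FLAG*, against 462 ± 34.9 with the empty vector (SD, n = 3 each). Several groups gave no call at all by the rule: none of 33 cell cycle genes and none of 20 Polycomb genes was called, and of 88 cytoplasmic ribosomal protein genes 1 was. At any fold change 1 of the 33 cell cycle genes was higher and 10 were lower at an adjusted p under 0.1, and 2 and 5 of the 20 Polycomb genes. With the empty vector the cell cycle list summed to 35305 to 35857 normalized counts and the Polycomb list to 13187 to 13606. Among all genes at 200 to 2000 counts 1.74% rose and 0.642% fell, and above 2000 counts 0.629% and 0.943%. So the absence of calls says little about lists of this size and level. The ribosomal exception was *RpS5b*, the germline paralog of a protein of the small subunit, at chromosome 3R, 14900432 to 14901563, minus strand, which had 587, 648 and 640.4 normalized counts with *ovo-FLAG* against 104, 113 and 104 with the empty vector (log2 FC 2.53 ± 0.09, adjusted p = 2.4e-13). In the sorted ovary its log2 fold change of germ cells over somatic cells was 0.42, under the threshold for germline-enriched genes. Its ubiquitous paralog *RpS5a* had 9094, 9599 and 9174 against 9627, 9747 and 10266 (log2 fold change -0.09, adjusted p = 0.21) and was not called.

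**Figure D4:**
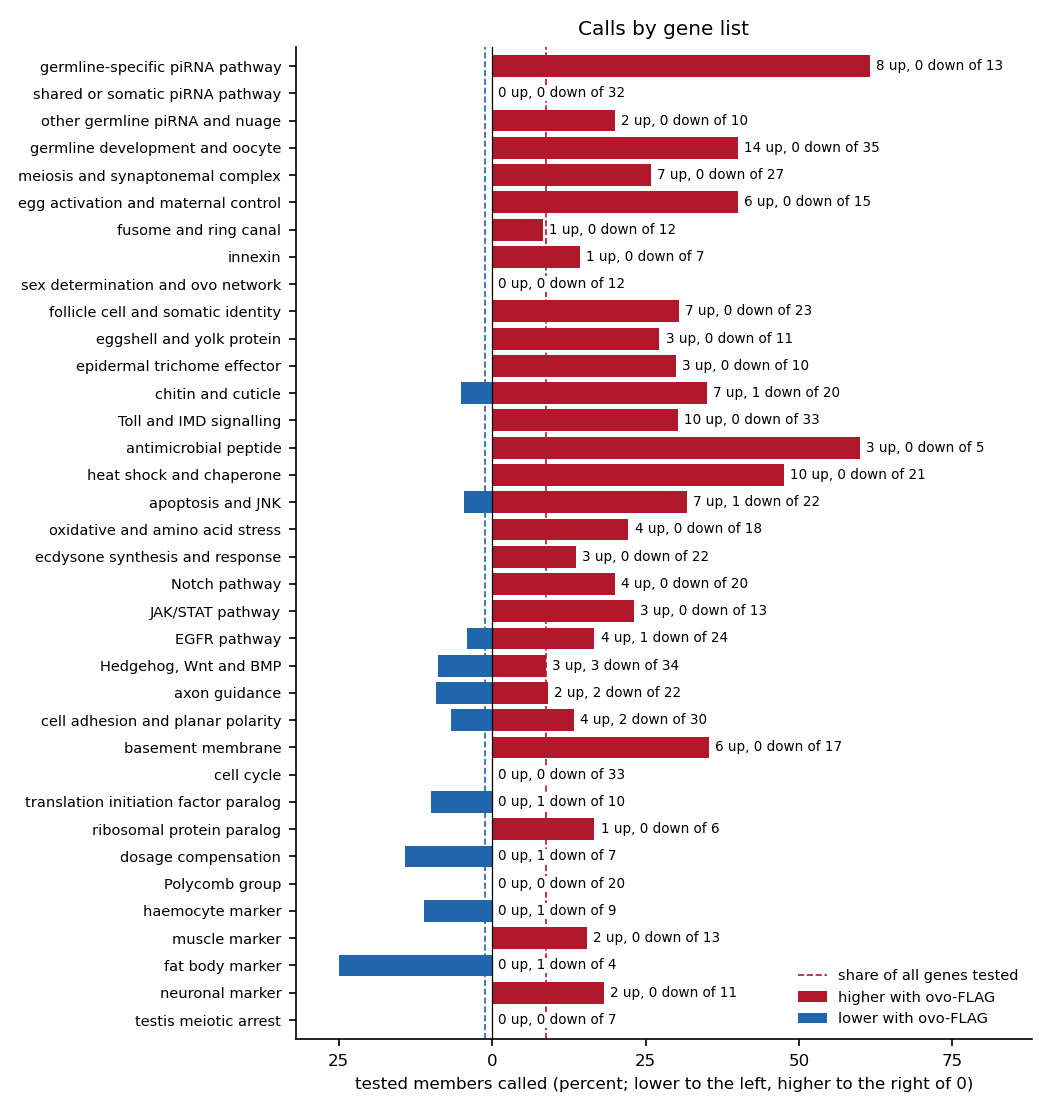
Share of the tested members of each of 36 gene lists that were called higher (red, to the right of 0) or lower (blue, to the left of 0) with *ovo-FLAG*, in percent, with the counts beside the bars; dashed lines mark the shares of all 9025 genes tested, 8.78% and 1.17%. The longest red bars are those of the germline piRNA and antimicrobial peptide lists, and the shares include members that passed the filter on low values through the *ovo-FLAG* libraries alone, such as all 3 rises among the antimicrobial peptides; the cell cycle, Polycomb and sex determination lists have no bar.

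Marker lists of other cell types are given with their summed levels, and their part in the results was not tested. Their counts of calls stand against 8.78% of all genes tested that rose and 1.17% that fell. The summed haemocyte list was 1592 to 1672 normalized counts with *ovo-FLAG* and 1478 to 1510 with the empty vector. Of the 15 genes of this list 4 had no read, among them *NimC1* and *He*. Of its 9 tested genes 1 fell, *atilla*, a surface protein of lamellocytes, with 88.6, 75.2 and 93.9 against 190.5, 185 and 169 (log2 FC -1.07 ± 0.13, adjusted p = 3.6e-06). The muscle list gave 10208 to 10585 with *ovo-FLAG* and 11373 to 12302 with the empty vector. *Act57B*, also used outside muscle, made up 4554 ± 85.8 of this with *ovo-FLAG*, against 5737 ± 557 (SD, n = 3 each). Of its 13 tested genes 2 rose, and 1 of the 12 that passed on the empty vector alone: *wupA*, a troponin subunit, with 42.7, 49.3 and 29.8 against 0, 2.37 and 0.559, and *Prm*, a paramyosin (log2 fold change 0.76). The fat body list was 20372 to 21202 with *ovo-FLAG* and 27140 to 28835 with the empty vector, most of it *FASN1*, a fatty acid synthase, with 17783 ± 567 with *ovo-FLAG*, against 24045 ± 1025 (SD, n = 3 each). Of its 4 tested genes 1 fell, the lipoprotein gene *apolpp* (log2 FC -0.72 ± 0.30, adjusted p = 0.090), whose call was lost without empty vector replicate 1 (log2 FC -0.51) or 2 (-0.74) or *ovo-FLAG* replicate 1 (-0.44) or 2 (-0.70), and 2 more were lower within the fold threshold. Of the 12 fat body genes 5 had no read, among them *Lsp2*, *Lsp1alpha*, *Fbp1* and *Fbp2*. The neuronal list was 1929 to 2252 with *ovo-FLAG* and 1880 to 2293 with the empty vector. Of 11 tested neuronal genes 2 rose, *nrv3*, an ATPase subunit, with 53.8, 54.5 and 63.0 against 3.14, 2.37 and 2.79 (log2 FC 3.95 ± 0.31, adjusted p = 1.7e-08). The other was *Appl* (log2 fold change 0.73), whose call was lost without empty vector replicate 1 (adjusted p = 0.12) or 2 (adjusted p = 0.11). The testis list was 297 to 351 with *ovo-FLAG* and 286 to 320 with the empty vector. Of its 15 genes found 4 had no read, among them *can*, *sa* and *nht*, and none of 7 tested genes was called.

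The same plasmid was given to Δ*l(3)mbt* OSCs, which already transcribe *ovo*, so that the effect of *ovo-FLAG* can be set beside the one in OSCs, each within its own table and with its own controls. There *ovo* averaged 2398 ± 146 normalized counts with *ovo-FLAG*, against 952 ± 73.7 with the empty vector (SD, n = 3 each), and 9.43% of genes rose and 2.53% fell. Of 763 genes that rose in OSCs and were tested in both lines, 457 also rose in Δ*l(3)mbt* OSCs, and of 98 that fell 36 also fell. The difference of the effects was tested in 8706 genes. It was beyond 0.6 with an adjusted p under 0.1 toward a more positive effect in OSCs for 3.07% of them and toward a more negative one for 1.52%. Of the 763 rises, 174 were larger in OSCs and 17 were smaller, against 267 more positive and 132 more negative effects among all 8706 genes. The 763 were picked by their rise in OSCs, and the same values enter the difference, so this split leans toward larger effects in OSCs. One of the empty-vector libraries of Δ*l(3)mbt* OSCs held 1.63 M counted reads, and without it 404 genes differed, against 399 with it.

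Some germline genes differed by that test and some were not called. The log2 fold changes of *zpg* were 7.29 in OSCs and 4.76 in Δ*l(3)mbt* OSCs, a difference of 2.52 (SE 0.78, adjusted p = 0.048). With no read of *zpg* with the empty vector in OSCs, the 7.29 and the difference depend on the 1 added before the log2. *swa* had 3.55 and 0.16, a difference of 3.39 (SE 0.33, adjusted p = 9.5e-08). *alphaTub67C* had 4.59 and 4.60 and *CG43689* 7.64 and 7.48, with no difference called. Among stress genes, 6 of the 7 cell death and JNK genes that rose in OSCs and 5 of the 9 such heat shock genes tested in both had a larger effect in OSCs. These genes were also picked by their rise in OSCs, so the counts lean the same way. *Hsp68* had 1.59 in OSCs and 0.32 in Δ*l(3)mbt* OSCs (difference 1.27, SE 0.09, adjusted p = 2.0e-10). *Ets21C* had 1.88 and 0.54 (difference 1.34, SE 0.14, adjusted p = 1.9e-07). *stv* had 0.86 and -0.35 (difference 1.20, SE 0.06, adjusted p = 1.2e-12). *RpS5b* rose by 2.53 in OSCs and had -0.15 in Δ*l(3)mbt* OSCs (difference 2.69, SE 0.08, adjusted p = 4.3e-18), where it averaged 4060.3 ± 98.0 normalized counts with *ovo-FLAG*, against 4519.9 ± 53.6 with the empty vector (SD, n = 3 each). *NetA* had -1.72 and -0.41 (difference -1.31, SE 0.20, adjusted p = 6.2e-05). The starting levels differ between the lines, and their part in these differences was not tested.

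**Figure D5:**
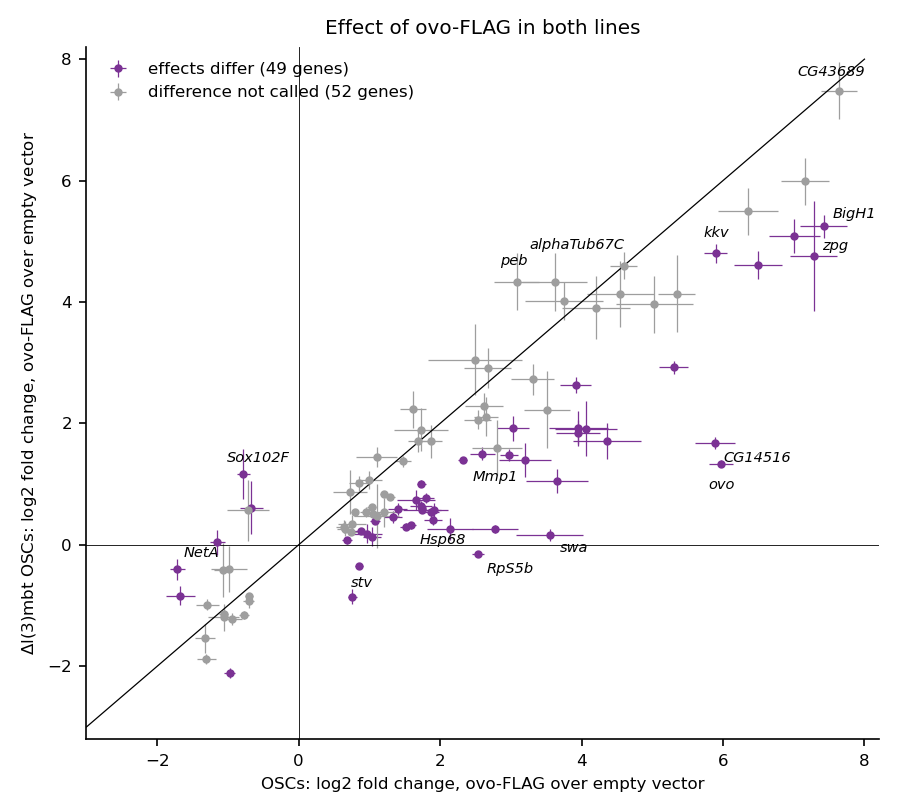
Log2 fold change of *ovo-FLAG* over the empty vector in OSCs (horizontal axis) and in Δ*l(3)mbt* OSCs (vertical axis) for genes named here that were called in OSCs, with standard errors over 3 libraries a group; purple points have effects that differ by the test of the difference, grey points do not, and the line marks equal effects. *RpS5b* lies near 0 on the vertical axis and *alphaTub67C* lies on the line.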

How the data were processed

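Per the labels, poly(A) RNA was sequenced from strand-specific libraries. Per the submitters' notes and the paper's methods, the authors trimmed reads (cutadapt 1.18), aligned them to BDGP6 (STAR 2.7.3a), counted them per gene by strand (featureCounts, Subread 1.5.3) and deposited counts divided by DESeq2 (1.30.1) size factors, a signal per gene. All values were whole multiples of 1 read within 0.01, so reads were recovered for count tests as alternatives. Deposited tables of the authors' own fold changes and p-values were not used.

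The log2 of the value plus 1 was tested with limma (3.58.1, R 4.3.3, trend and robust variance) without a block in genes with a mean of at least 2, in place of a count test, since the deposited values are normalized. Thresholds were the study's. The difference between the lines was a contrast over 12 samples. Alternatives were other pseudocounts, filters, quantile normalization, edgeR (4.0.16), DESeq2 (1.42.0), limma-voom, a replicate block, and leaving out each library; filtering on the empty vector alone and leaving out libraries from the contrast were chosen after seeing the data. The fit was tested on simulated data with known changes. Replicates differed by 1.98 to 5.04 times the variance of counting. Intervals and limits of reads cover counting error only.

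Members and the 36 gene lists were chosen with earlier results of these data known. Named genes were those the study names, the 15 largest changes in each direction with at least 100 counts and no overlap, 10 transcription factors, 8 most abundant called genes and 5 noncoding RNAs each way, and up to 4 members a list, of which those given here are a selection. Positions are from Ensembl release 115, matched by symbol for 8492 genes, while the study counted on release 100. Promoter motifs were not analysed here.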

Additional observations from a re-analysis of the deposited data

Results flagged for a closer look

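The effect of *ovo-FLAG* differed between OSCs and Δ*l(3)mbt* OSCs in 399 of 8706 genes, by the test of the difference of the effects (limma, a difference beyond 0.6 and an adjusted p under 0.1), and several of the genes named above are among them. All differences are the log2 fold change in OSCs minus that in Δ*l(3)mbt* OSCs, so a positive one means a more positive effect in OSCs.

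The difference was 4.64 for *ovo*, which the Δ*l(3)mbt* OSCs already transcribe. Among germline, meiosis, egg and piRNA genes it was 2.52 for *zpg*, 1.89 for *nos*, 2.15 for *osk*, 3.39 for *swa*, 1.49 for *fs(1)N*, 0.90 for *gcl*, 0.78 for *grk*, 2.03 for *c(2)M*, 0.88 for *c(3)G*, 2.61 for *hdm*, 2.18 for *BigH1*, 2.65 for *Mos*, 1.29 for *aub*, 2.52 for *CG13741* and 1.16 for *vas*. All of these rose in OSCs, and the log2 fold change was larger there. With the empty vector all of them had higher means in Δ*l(3)mbt* OSCs, each within its own table. *vas* averaged 1026 normalized counts there against 14.4 in OSCs, *CG13741* 523 against 6.12 and *swa* 168 against 0.764. The part of these starting levels in the differences was not tested. They were picked by their calls in OSCs, and the same values enter the difference. *zpg*, *nos* and *BigH1* had next to no counts with the empty vector in OSCs. Their differences also depend on the 1 added before the log2. Leaving out 1 library at a time, the call was kept in 3 of 12 fits for *grk* and in 8 of 12 for *zpg*, whose difference then ranged between 1.97 and 3.55. It was lost for *zpg* without empty vector replicate 1, 2 or 3 or without Δ*l(3)mbt* empty vector replicate 1.

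Among stress and immune genes the difference was 1.12 for *Hsp26*, 0.73 for *Hsp23*, 1.27 for *Hsp68*, 1.11 for *Hsp70Ab*, 1.20 for *stv*, 1.80 for *rpr*, 0.92 for *Mmp1*, 0.69 for *puc*, 1.34 for *Ets21C*, 1.34 for *upd3*, 1.92 for *PGRP-SA*, 1.09 for *Dif* and 1.03 for *pirk*, and it was -0.84 for *Buffy*, which fell more in OSCs. The call was kept in 8 of 12 such fits for *PGRP-SA*, where the difference ranged between 1.32 and 2.42, and was lost without empty vector replicate 2, *ovo-FLAG* replicate 2 or Δ*l(3)mbt* empty vector replicate 1 or 3. It was lost for *Buffy* without empty vector replicate 1.

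Among the other genes it was 1.09 for *kkv*, 1.22 for *Idgf3*, 0.65 for *sn*, 1.10 for *dpp*, 0.92 for *aos*, 0.82 for *edl*, 1.89 for *tsl*, 1.49 for *Tig*, 0.61 for *rgr*, 4.21 for *CG14516*, 2.38 for *CG6357*, 2.69 for *RpS5b*, 1.61 for *Prm* and 2.11 for *nrv3*. *nAChRalpha1* had a difference of 1.13, since it fell less in OSCs. *NetA* had -1.31, *NetB* -1.19 and *Sox102F* -1.94. *Sox102F* fell in OSCs and had a log2 fold change of 1.16 in Δ*l(3)mbt* OSCs, where its levels were low. It averaged 17.6 ± 5.36 normalized counts there with *ovo-FLAG*, against 7.60 ± 3.32 with the empty vector (SD, n = 3 each). *lncRNA:roX1* had -1.28. The call was kept in 6 of 12 fits without 1 library for *aos*, 7 for *rgr*, 11 for *sn* and 11 for *lncRNA:roX1*, the last lost without empty vector replicate 2.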

How the results depend on the processing

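The 792 genes higher with *ovo-FLAG* became 551 to 941 under the alternatives other than leaving out a library, and 690 to 840 without 1 library. The 106 lower genes became 64 with DESeq2 and 385 under quantile normalization, of which 62 and 105 were among the 106, and 73 to 156 without 1 library; the cause was not tested. Counts of genes differing between the lines were 331 to 440 without 1 library, against 399. Replicate numbers did not pair the samples: deviations from the group means correlated by 0.049, -0.044 and 0.011 for numbers 1, 2 and 3, and 1 of the 3 libraries with *ovo-FLAG* correlated best with its own number. With the replicate number as a block, 816 genes were higher, 116 lower and 434 differed between the lines. Of 102 named genes that were called, 86 could be tested under all 17 alternatives and 78 of these kept their call in each. The other 16, which stricter filters left out, kept it wherever they were tested, and none of the 102 changed sign. Lost were *zye* (log2 fold change 0.55) and *Cp18* (0.53) under quantile normalization, *CG2678* (0.56) there, *Appl* with DESeq2 (0.75, adjusted p = 0.11), under quantile normalization (0.27) or without empty vector replicate 1 or 2 (adjusted p = 0.12 and 0.11), and *lncRNA:roX1* (-0.47) and *squ* (0.55) without *ovo-FLAG* replicate 2, *Nxf3* without empty vector replicate 2 (0.58) or *ovo-FLAG* replicate 1 (0.59), and *apolpp* under 9 of the 17 (-0.74 to -0.44, adjusted p = 0.13 to 0.36). Depth limits what can be seen of low genes: 1 read was worth 1.15 to 2.59 normalized counts with *ovo-FLAG* and 0.475 to 0.784 with the empty vector, and 91 genes had reads in all 3 empty-vector libraries and none with *ovo-FLAG*.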

Other observations

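The counts of the lists given next stand against 8.78% of all genes tested that rose and 1.17% that fell. Of 22 axon guidance genes tested 2 rose and 2 fell, and *robo2*, a receptor of Slit, had 106, 98.5 and 89.4 normalized counts with *ovo-FLAG* against 39.2, 26.6 and 29.1 with the empty vector (log2 FC 1.62 ± 0.19, adjusted p = 2.7e-06). Of 7 dosage compensation genes 1 fell, *lncRNA:roX1*, an RNA of the male dosage compensation complex, with 96.5, 62.2 and 91.7 against 127, 140.1 and 126 (log2 FC -0.67 ± 0.16, adjusted p = 0.0045), and -0.47 without *ovo-FLAG* replicate 2, where the call was lost. Of 10 translation initiation factor genes 1 fell, the cap-binding paralog *eIF4E3*, with 15.8, 15.6 and 13.7 against 34.5, 29.9 and 27.9 (log2 FC -0.98 ± 0.26, adjusted p = 0.0092). Of 10 further nuage and piRNA genes 2 rose, *squ* (log2 fold change 0.65, and 0.55, not called, without *ovo-FLAG* replicate 2) and *CG2678* (0.75).

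Of 22 genes of ecdysone synthesis and response 3 rose and none fell, and 2 rose among the 21 that passed on the empty vector alone. *Eip63F-1*, a calcium-binding protein, had 3.16, 18.2 and 14.9 normalized counts with *ovo-FLAG* against 2.35, 0 and 1.12 with the empty vector (log2 FC 2.49 ± 0.66, adjusted p = 0.0095). It passed the filter through the libraries with *ovo-FLAG*, and had 22 reads over them against 5 with the empty vector. *Eip55E*, an enzyme of cysteine synthesis, had 788, 928 and 787 against 377, 447 and 473 (log2 FC 0.95 ± 0.09, adjusted p = 1.7e-07). Some genes with no read in the empty-vector libraries carry no name beyond an annotation symbol: *CG16713* had 103 reads over the libraries with *ovo-FLAG*, at least 95.3-fold more, and *CG2121* had 42, at least 38.9-fold more.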
